A study of Mus musculus with 6 samples.

Results

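The 4 MiT/TFE transcription factors (Tfeb, Mitf, Tfe3 and Tfec) and 6 genes known as their regulators or targets (Flcn, Fnip1, Fnip2, Rragc, Rragd and Gpnmb) were followed in podocytes depleted of Tfeb. These 10 genes were taken by symbol from the 53715 genes of the deposited table, and each symbol named 1 gene. The cells were an immortalized mouse podocyte line from kidney. In 3 libraries they had been given a short interfering RNA (siRNA) against Tfeb, a genotype labelled as a TFEB knockdown, and in 3 libraries a scrambled siRNA, with the genotype labelled WT. Cells of both groups were expanded at 33 °C in 10% serum with interferon gamma and differentiated at 37 °C in 5% serum with type I collagen for 10 to 14 days. The question set by the design is which transcripts differ once Tfeb is depleted.

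MiT/TFE proteins are helix-loop-helix leucine zipper factors that bind E-box sequences, among them the CLEAR element in front of many lysosomal genes. In fed cells the kinase mTORC1 phosphorylates them at the lysosome, and 14-3-3 proteins then hold them in the cytosol. Their recruitment there needs the small GTPases RagC or RagD, which folliculin (Flcn) switches with its partners Fnip1 and Fnip2. Flcn, Rragc, Rragd and the Fnip genes are themselves known targets of the factors, which closes a feedback loop. Gpnmb, a lysosomal and surface glycoprotein, is a known target of Mitf in melanocytes, osteoclasts and macrophages. In podocytes, cells with little turnover, Tfeb is studied for its control of autophagy.

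Of the 10 genes, 8 averaged at least 1 FPKM across all 6 libraries and were tested. FPKM counts fragments per kilobase of gene, scaled to library size. For each of the 10 genes the length used was that of all its annotated exons joined (9261 bases for Tfe3, which has 14 annotated transcripts). Levels set side by side between genes are therefore approximate. Tfeb, Mitf, Fnip1 and Gpnmb were lower after Tfeb siRNA, Fnip2 was higher, and Tfe3, Flcn and Rragc did not pass the test. Tfec and Rragd lay under the limit on low values. A gene was called at a limma adjusted p below 0.05, and 33.3% of the 12257 tested genes were called in either direction, 16.4% lower and 16.9% higher. The 4 lower and 1 higher members of 8 are read against that. Tfeb is the target of the siRNA, and without it 4 of 7 were called. The groups did not overlap for 6 of the 8 tested members, against 48.7% of all tested genes. The median log2 fold change was -0.24 over the 8 members and -0.10 without Tfeb, beside 0.02 over all tested genes.

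**Figure D1:**
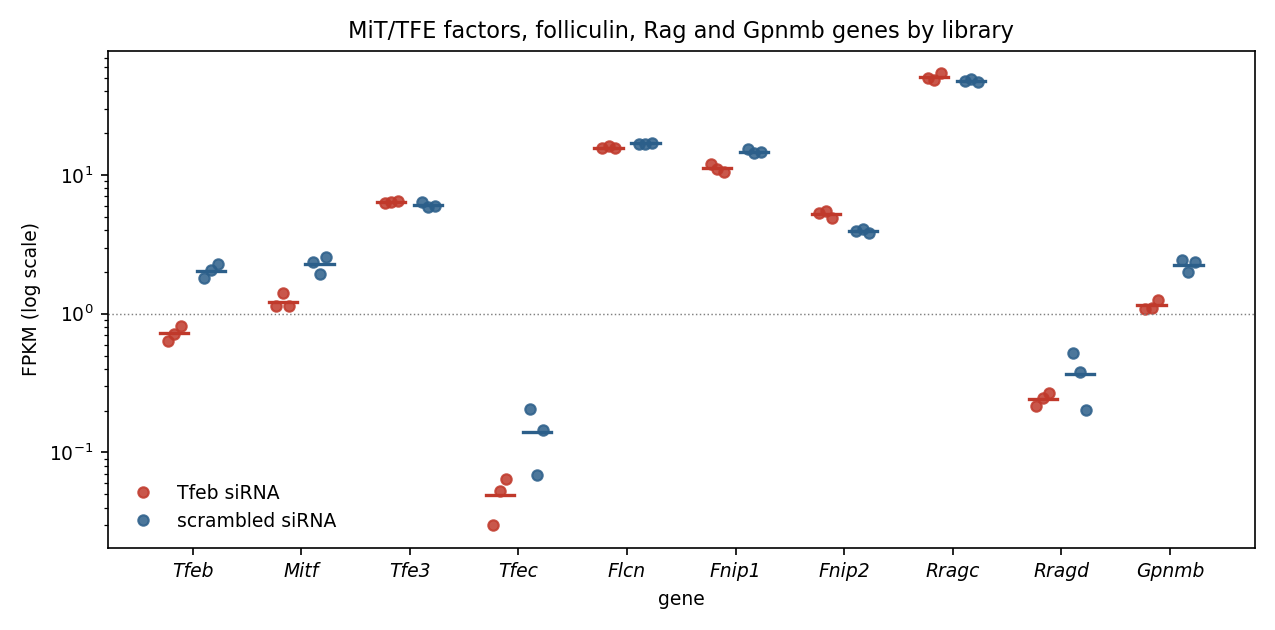
FPKM of the 10 genes in each library on a log scale, with Tfeb siRNA on the left of each pair and scrambled siRNA on the right. Points are libraries, short bars are group means, and the dotted line marks 1 FPKM. The groups are apart for Tfeb, Mitf, Fnip1, Fnip2 and Gpnmb, close for Flcn, and overlap for Tfe3, Rragc and Rragd, while Tfec and Rragd lie below the line.

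Where the sequence in front of a gene holds an E-box, MiT/TFE factors could in principle bind it, so the 250 bases before each annotated start were searched (RefSeq, build GRCm38.p6). The 10 genes had 15 such windows. Letters searched on both strands were the E-box core CACGTG, the CLEAR centre TCACGTG, which contains that core, and the M-box word TCATGTG, a form known from Mitf targets. Only Fnip1 and Rragc held a match, and each held CACGTGA, the reverse strand of TCACGTG. It began 75 bases before the start of Fnip1 and 112 bases before that of Rragc. Among all 32851 windows, TCACGTG occurred in 3.13%, CACGTG in 6.02% and TCATGTG in 3.25%. Sequence outside these windows was not searched, so a window without a match does not mean a gene without a site. Windows of both folliculin partners, of Rragc and of Gpnmb are given to show a matched window in a gene that fell and in a gene that was not called, and unmatched windows in a gene that rose and in a gene that fell. Capitals mark the match. The Fnip1 window is chr11:54437929-54438178 on the plus strand, Fnip2 is chr3:79567680-79567929 on the minus strand, Rragc is chr4:123917183-123917432 on the plus strand and Gpnmb is chr6:49036268-49036517 on the plus strand.
Fnip1: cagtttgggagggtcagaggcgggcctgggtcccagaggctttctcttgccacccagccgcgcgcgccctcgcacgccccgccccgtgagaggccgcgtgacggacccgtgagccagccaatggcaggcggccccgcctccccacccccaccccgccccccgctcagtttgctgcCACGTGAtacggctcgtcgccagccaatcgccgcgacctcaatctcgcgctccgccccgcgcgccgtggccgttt
Fnip2: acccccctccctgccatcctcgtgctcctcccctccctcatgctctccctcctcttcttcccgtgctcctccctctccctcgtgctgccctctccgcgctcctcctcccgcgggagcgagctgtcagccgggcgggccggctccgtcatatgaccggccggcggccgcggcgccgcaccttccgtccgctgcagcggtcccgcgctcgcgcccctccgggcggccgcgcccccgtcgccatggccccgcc
Rragc: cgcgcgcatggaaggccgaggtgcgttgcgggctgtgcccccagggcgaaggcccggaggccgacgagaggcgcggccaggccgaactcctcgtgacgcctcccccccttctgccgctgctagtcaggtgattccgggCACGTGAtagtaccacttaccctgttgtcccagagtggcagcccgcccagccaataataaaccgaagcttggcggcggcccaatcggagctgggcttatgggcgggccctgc
Gpnmb: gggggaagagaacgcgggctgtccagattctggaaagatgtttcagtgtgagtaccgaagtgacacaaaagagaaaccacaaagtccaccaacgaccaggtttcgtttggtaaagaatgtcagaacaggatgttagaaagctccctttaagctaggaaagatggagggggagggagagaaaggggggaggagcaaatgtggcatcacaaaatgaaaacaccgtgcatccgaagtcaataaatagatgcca

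Tfeb (ENSMUSG00000023990, mm10 chromosome 17, 47737030 to 47792419, plus strand) had 0.639, 0.714 and 0.822 FPKM in Tfeb siRNA replicates 1, 2 and 3, against 1.80, 2.05 and 2.27 FPKM in scrambled siRNA replicates 1, 2 and 3. Every library given the siRNA lay under every scrambled library. The Tfeb siRNA group held 237 derived reads of Tfeb and the scrambled group 723, and the group mean was 35.5% of the scrambled mean. Its log2 fold change of -1.05 (SE 0.13, limma adjusted p = 0.00148) placed Tfeb at rank 100 from the lowest of 12257 genes. An exact two-sided permutation test of the group means gave p = 0.1, the smallest it can give with 3 against 3. On the log2(FPKM + 0.5) scale used for the tests, changes of genes this low are understated.

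Mitf, the family member that governs melanocytes and takes part in osteoclast formation (ENSMUSG00000035158, chromosome 6, 97807052 to 98021349), had 1.14, 1.40 and 1.13 FPKM in Tfeb siRNA replicates 1, 2 and 3, against 2.35, 1.93 and 2.58 FPKM in scrambled siRNA replicates 1, 2 and 3. The groups did not overlap, and in each group replicate 2 was nearest to the other group. Mitf averaged 1.22 ± 0.155 FPKM after Tfeb siRNA and 2.29 ± 0.327 FPKM after scrambled siRNA (SD, n = 3 each), a log2 fold change of -0.69 (SE 0.13, limma adjusted p = 0.00738) on 438 and 886 reads. The annotation used here lists 8 Mitf transcripts, and the gene-level table does not tell them apart.

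Tfe3, a broadly expressed member that overlaps with Tfeb in function (ENSMUSG00000000134, chromosome X, 7762560 to 7775202), was the most abundant factor. It had 6.32, 6.39 and 6.47 FPKM in Tfeb siRNA replicates 1, 2 and 3, against 6.34, 5.88 and 5.95 FPKM in scrambled siRNA replicates 1, 2 and 3. The ranges overlapped through scrambled replicate 1. The log2 fold change of 0.07 had a 95% interval of -0.06 to 0.20 (limma adjusted p = 0.364). In ratios this spans 0.959 to 1.15.

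Tfec, a member known mainly from macrophages (ENSMUSG00000029553, chromosome 6, 16833373 to 16898441), was close to the limit of detection. It rested on 3, 6 and 7 reads in Tfeb siRNA replicates 1, 2 and 3, against 24, 8 and 17 reads in scrambled siRNA replicates 1, 2 and 3. The groups did not overlap in FPKM, with 0.0299 to 0.0648 FPKM after Tfeb siRNA and 0.0691 to 0.206 FPKM after scrambled siRNA, although only 1 read separated the nearest libraries (exact permutation p = 0.1). The mean after Tfeb siRNA was 35.1% of the scrambled mean. With no limit on low values the log2 fold change of Tfec was -0.22 (limma adjusted p = 0.205). That fit used the scale of the other tests, which understates changes of genes this low, so it cannot decide whether Tfec changed.

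Summed over the 4 factors, transcript levels were 8.39 ± 0.228 FPKM after Tfeb siRNA and 10.5 ± 0.523 FPKM after scrambled siRNA (SD, n = 3 each). Tfe3 made up 77.7%, 74.6% and 76.2% of this sum in Tfeb siRNA replicates 1, 2 and 3, against 59.2%, 59.2% and 54.4% in scrambled siRNA replicates 1, 2 and 3. The share of Tfeb averaged 8.63% ± 0.945 after Tfeb siRNA and 19.4% ± 2.23 after scrambled siRNA. The share of Mitf averaged 14.6% ± 1.61 after Tfeb siRNA and 21.7% ± 2.07 after scrambled siRNA. Mitf was thus above Tfeb in every Tfeb siRNA library, at 1.37 to 1.96 times its level, while among scrambled libraries the ratio ran from 0.942 to 1.31 and the order of the pair was not the same in all. These shares and ratios depend on the gene lengths used, and they describe RNA, not protein.

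**Figure D2:**
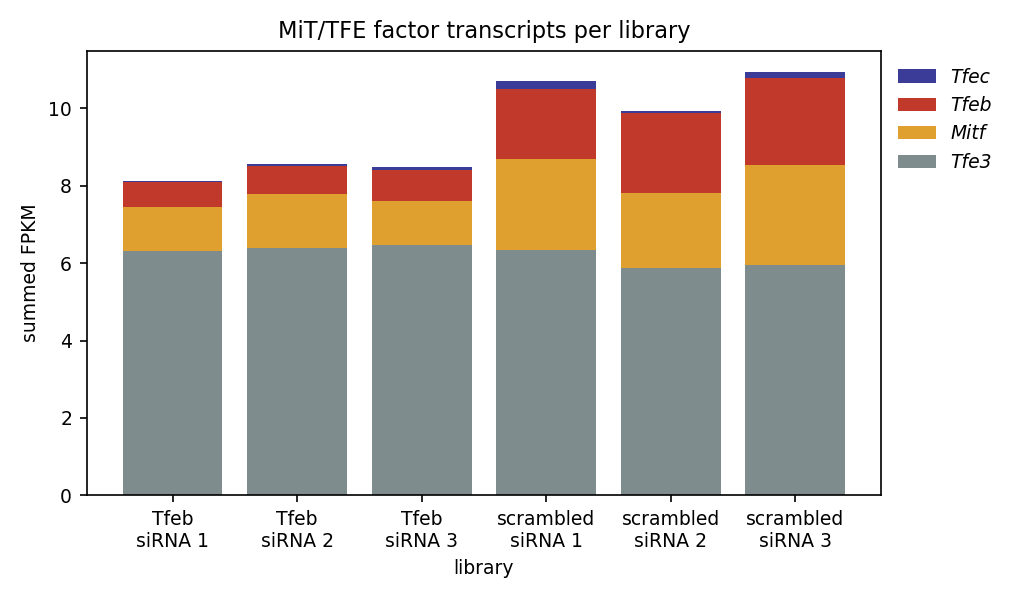
Stacked FPKM of the 4 MiT/TFE factors (vertical axis) in each library, Tfeb siRNA on the left and scrambled siRNA on the right. The Tfe3 segment is near 6 in all libraries, whereas the Tfeb and Mitf segments are shorter in the 3 Tfeb siRNA libraries, and Tfec is barely visible.

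Sequence that the factors share bears on which of them 1 siRNA could pair with, so their annotated transcripts (GENCODE M21) were compared with those of Tfeb for words of 19 bases, a usual siRNA core length. Tfe3 shared 13 such words with Tfeb, Mitf shared 2, and Tfec, Flcn, Fnip1, Fnip2, Rragc, Rragd and Gpnmb shared 0. The longest stretch in common with Tfe3 had 29 bases and that with Mitf had 20, both in the coding part of each transcript. Sources used here do not give the siRNA's sequence, and whether it lies in either stretch was not tested. Both stretches are shown whole in capitals, as every base is shared.
Tfeb and Tfe3: CAGAAGAAAGACAATCACAACCTAATTGA
Tfeb and Mitf: CAGGAGCTGGAGATGCAGGC

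Folliculin genes did not move together. Flcn, the GTPase-activating protein for RagC and RagD and a tumour suppressor of the kidney (ENSMUSG00000032633, chromosome 11, 59791408 to 59810016), had 15.5, 16.0 and 15.6 FPKM in Tfeb siRNA replicates 1, 2 and 3, against 16.8, 16.8 and 17.0 FPKM in scrambled siRNA replicates 1, 2 and 3. Its libraries did not overlap and replicates lay close together, but the difference was small. The log2 fold change of -0.10 (SE 0.05, 95% interval -0.21 to 0.01) did not pass (limma adjusted p = 0.128).

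Fnip1, the folliculin partner that is also an Hsp90 co-chaperone (ENSMUSG00000035992, chromosome 11, 54438199 to 54518235), had 12.0, 11.1 and 10.6 FPKM in Tfeb siRNA replicates 1, 2 and 3, against 15.3, 14.4 and 14.6 FPKM in scrambled siRNA replicates 1, 2 and 3. It fell 1.31-fold, with the highest Tfeb siRNA library well under the lowest scrambled library (log2 fold change -0.38, SE 0.06, limma adjusted p = 0.00455, 4593 and 6560 reads). Fnip2, its paralogue (ENSMUSG00000061175, chromosome 3, 79455974 to 79567796), had 5.31, 5.53 and 4.86 FPKM in Tfeb siRNA replicates 1, 2 and 3, against 3.92, 4.09 and 3.85 FPKM in scrambled siRNA replicates 1, 2 and 3. Fnip2 rose 1.32-fold and its groups did not overlap either (log2 fold change 0.36, SE 0.07, limma adjusted p = 0.00778, 2519 and 2063 reads).

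Fnip1 remained the partner with the higher FPKM in all 6 libraries. The ratio of Fnip1 to Fnip2 was 2.27, 2.01 and 2.17 in Tfeb siRNA replicates 1, 2 and 3, against 3.90, 3.53 and 3.78 in scrambled siRNA replicates 1, 2 and 3. Every Tfeb siRNA library had a lower ratio than every scrambled library. Their sum was 16.5 ± 0.966 FPKM after Tfeb siRNA and 18.7 ± 0.448 FPKM after scrambled siRNA (SD, n = 3 each).

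**Figure D3:**
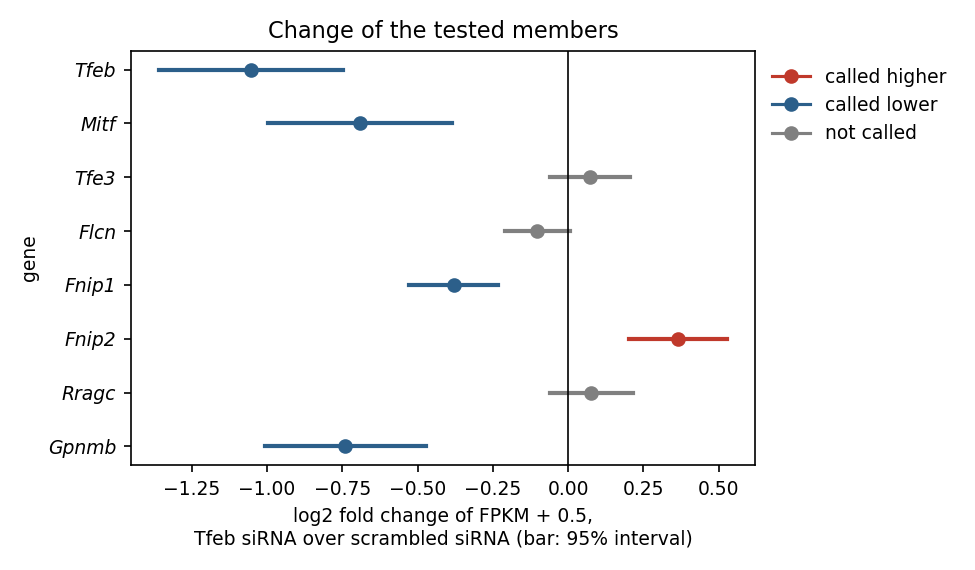
Log2 fold change of FPKM + 0.5, Tfeb siRNA over scrambled siRNA (horizontal axis), for the 8 tested genes, with 95% intervals from the limma model. Tfeb, Gpnmb, Mitf and Fnip1 lie below 0, Fnip2 lies above 0, and the intervals of Tfe3, Flcn and Rragc include 0.

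The Rag GTPases of this set differed widely in level. Rragc (ENSMUSG00000028646, chromosome 4, 123917446 to 123936997), which pairs with RagA or RagB on the lysosome, was the most abundant of the 10 genes. It had 49.6, 48.2 and 54.0 FPKM in Tfeb siRNA replicates 1, 2 and 3, against 47.4, 49.2 and 47.0 FPKM in scrambled siRNA replicates 1, 2 and 3. Ranges overlapped, and the log2 fold change of 0.08 had a 95% interval of -0.06 to 0.21 (limma adjusted p = 0.343). On the opposite strand 4930535I16Rik overlaps 7.90% of the annotated Rragc exon bases, and sources used here do not say whether counting used strand, so reads there could not be assigned with certainty.

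Rragd, the RagD gene and a strongly induced target of the factors in other cells (ENSMUSG00000028278, chromosome 4, 32983037 to 33022180), had 0.216, 0.248 and 0.270 FPKM in Tfeb siRNA replicates 1, 2 and 3, against 0.520, 0.383 and 0.203 FPKM in scrambled siRNA replicates 1, 2 and 3. Scrambled replicate 3 was the lowest of all 6 libraries, so the groups overlapped. With 73 reads in the Tfeb siRNA group and 119 in the scrambled group, no difference was detectable at this depth (exact permutation p = 0.4, limma adjusted p = 0.522 with no limit on low values). Rragd made up 0.481% ± 0.0425 of the RagC and RagD transcripts after Tfeb siRNA and 0.763% ± 0.327 after scrambled siRNA.

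Gpnmb (ENSMUSG00000029816, chromosome 6, 49036546 to 49070929) had 1.09, 1.10 and 1.26 FPKM in Tfeb siRNA replicates 1, 2 and 3, against 2.44, 2.0 and 2.34 FPKM in scrambled siRNA replicates 1, 2 and 3. All Tfeb siRNA libraries were below all scrambled libraries. Gpnmb fell 1.96-fold, on 431 and 919 reads (log2 fold change -0.74, SE 0.11, limma adjusted p = 0.00338), and ranked 273 from the lowest, ahead of Mitf at 348.

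In scrambled siRNA cells mean FPKM ran in the order Rragc, Flcn, Fnip1, Tfe3, Fnip2, Mitf, Gpnmb, Tfeb, Rragd and Tfec. This order depends on the gene lengths used. Mitf, Gpnmb and Tfeb, with means of 2.29, 2.26 and 2.04 FPKM and SDs of 0.327, 0.233 and 0.233 FPKM, did not differ beyond their spread, whereas the other neighbours did not overlap between libraries except Rragd and Tfec, where the lowest Rragd library (0.203 FPKM) met the highest Tfec library (0.206 FPKM).

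Markers of other cell types that use these factors were read beside Mitf and Gpnmb. Of 7 melanocyte markers, Tyr and Dct were at 0 in every library and only Pmel reached 1 FPKM. Their summed level was 1.02 to 1.93 FPKM after Tfeb siRNA and 2.51 to 3.94 FPKM after scrambled siRNA. Of 6 osteoclast markers none reached 1 FPKM, Ocstamp and Dcstamp were at 0, and the sums were 0.293 to 0.579 FPKM after Tfeb siRNA and 0.859 to 1.16 FPKM after scrambled siRNA. Of 9 macrophage markers 4 reached 1 FPKM, Itgam was at 0, and the sums were 18.3 to 20.9 FPKM after Tfeb siRNA and 20.0 to 23.2 FPKM after scrambled siRNA. Among these 4, only Csf1r did not overlap between groups. The groups overlapped for Cd68, Cd14 and Lyz2, whose means did not run one way. Csf1r, the receptor of a macrophage growth factor, had 2.24 ± 0.133 FPKM after Tfeb siRNA and 4.25 ± 0.150 FPKM after scrambled siRNA (SD, n = 3 each), and Cd68, a lysosomal glycoprotein, had 4.56 ± 0.743 FPKM after Tfeb siRNA and 5.76 ± 0.938 FPKM after scrambled siRNA. Cd14, a receptor for bacterial lipopolysaccharide, had 11.1 ± 0.586 FPKM after Tfeb siRNA and 10.1 ± 0.864 FPKM after scrambled siRNA, and Lyz2, a lysozyme, had 1.26 ± 0.362 FPKM after Tfeb siRNA and 0.742 ± 0.331 FPKM after scrambled siRNA. The part of these cell types in the result was not tested, and in bulk RNA fewer cells of a type and less RNA per cell cannot be told apart.

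As a check of the labelled cell type, 6 of 12 podocyte markers reached 1 FPKM, among them Actn4, Cd2ap, Synpo, Kirrel and Podxl. The slit diaphragm gene Nphs1, a marker of mature podocytes, was nearly absent, with a mean of 0.0651 FPKM after Tfeb siRNA and 0.232 FPKM after scrambled siRNA. The markers summed to 304 to 308 FPKM after Tfeb siRNA and 315 to 339 FPKM after scrambled siRNA. Tubule markers summed to 180 to 217 FPKM after Tfeb siRNA and 174 to 226 FPKM after scrambled siRNA, nearly all from Aqp1 and Lrp2, and endothelial markers stayed below 1 FPKM in sum. Markers of mesangium and fibroblasts summed to 1440.2 to 1463 FPKM after Tfeb siRNA and 1500 to 1611 FPKM after scrambled siRNA, mostly from the actin gene Acta2. Within that list Col1a1, a collagen chain, had 7.31 ± 1.14 FPKM after Tfeb siRNA and 2.54 ± 0.382 FPKM after scrambled siRNA, whereas Des, the filament protein desmin, had 0.503 ± 0.0824 FPKM after Tfeb siRNA and 1.42 ± 0.209 FPKM after scrambled siRNA. Libraries held 18062898 to 20010130 derived reads after Tfeb siRNA and 20143910 to 20610888 after scrambled siRNA, and replicate 1 of both groups stood apart on the second principal component (19.3% of the variance).

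Of the machinery that keeps MiT/TFE proteins in the cytosol, 24 of 25 listed genes were tested, of which 10 rose, 1 fell and 13 did not pass (45.8% called, against 33.3% of all tested genes; median log2 fold change 0.08, against 0.02). Within this list 5 of the 7 genes for 14-3-3 proteins rose and 0 fell, beside 16.9% of all tested genes higher and 16.4% lower, but this subgroup was chosen after its values were seen. Ywhag, which encodes 14-3-3 gamma, had 103 ± 4.17 FPKM after Tfeb siRNA and 63.3 ± 4.45 FPKM after scrambled siRNA (log2 fold change 0.70, limma adjusted p = 0.000638). Lamtor5, a Ragulator subunit, had 28.1 ± 3.50 FPKM after Tfeb siRNA and 18.9 ± 1.43 FPKM after scrambled siRNA (limma adjusted p = 0.00588), but 14.5% of its 50-base words recur in other genes. Lamtor2, another Ragulator subunit, had 28.5 ± 0.539 FPKM after Tfeb siRNA and 32.5 ± 1.87 FPKM after scrambled siRNA (limma adjusted p = 0.0439). It lost its call without any 1 of 5 of the 6 libraries, the exception being scrambled replicate 2 (highest adjusted p = 0.128, without scrambled replicate 3). Rraga, Rragb, Mtor and Rptor did not pass (limma adjusted p = 0.166, 0.260, 0.0855 and 0.998).

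Among 9 genes of the calcineurin pathway and other phosphatases that free the factors, 2 rose, 2 fell and 5 did not pass (44.4% called, against 33.3% of all tested genes; median log2 fold change 0.01). Ppp2r1a, the scaffold subunit of the phosphatase PP2A, rose 2.70-fold, to 89.9 ± 3.34 FPKM in Tfeb siRNA cells against 33.4 ± 1.68 FPKM in scrambled siRNA cells (limma adjusted p = 6.66e-05). Mcoln1, the lysosomal calcium channel, rose 1.23-fold, and Ppp3cc and Ppp3r1, a catalytic and the regulatory subunit of calcineurin, fell 1.36-fold and 1.22-fold (limma adjusted p = 0.0114, 0.00782 and 0.00549). For Ppp3r1, 13.0% of 50-base words recur in other genes, mainly the overlapping Wdr92.

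Of 11 tested relatives of folliculin and regulators of the Rag branch 2 rose, 0 fell and 9 did not pass (18.2% called, below the 33.3% of all tested genes; median log2 fold change 0.05). The gene 3110043O21Rik, the mouse counterpart of human C9orf72, had 6.61 ± 0.334 FPKM after Tfeb siRNA and 5.17 ± 0.217 FPKM after scrambled siRNA (limma adjusted p = 0.00885). Tsc1, a brake on mTORC1, had 6.75 ± 0.265 FPKM after Tfeb siRNA and 5.69 ± 0.193 FPKM after scrambled siRNA (limma adjusted p = 0.0240). The call of Tsc1 was lost without Tfeb siRNA replicate 1 or 2 or scrambled replicate 2 or 3 (up to 0.0829).

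Known targets of TFEB outside the 10 genes went both ways. Of 23 tested CLEAR genes 7 rose, 5 fell and 11 did not pass (52.2% called, against 33.3% of all tested genes; median log2 fold change -0.03). Gabarapl1, an autophagosome protein, rose 1.36-fold (limma adjusted p = 0.00497), with 23.1% of its words also in the antisense gene 1700101I11Rik. Gla, alpha-galactosidase, had 9.02 ± 0.285 FPKM after Tfeb siRNA and 13.4 ± 1.52 FPKM after scrambled siRNA (limma adjusted p = 0.00411), and Uvrag, an autophagy and endosome protein, fell 1.26-fold (limma adjusted p = 0.00937), with 17.4% of its words in other genes.

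Most of 18 Mitf targets known from melanocytes and osteoclasts were too low to test. Of the 5 tested, 1 rose, 3 fell and 1 did not pass, beside 16.9% of all tested genes higher and 16.4% lower (median log2 fold change -0.21). Pmel, a melanosome protein that is also one of the melanocyte markers above, had 1.17 ± 0.269 FPKM after Tfeb siRNA and 2.14 ± 0.245 FPKM after scrambled siRNA (limma adjusted p = 0.0153), on 156 and 306 reads, and its adjusted p was 0.0517 with no limit on low values. Bcl2, a survival factor, had 7.01 ± 0.221 FPKM after Tfeb siRNA and 10.2 ± 0.113 FPKM after scrambled siRNA (limma adjusted p = 0.000802). Met, the receptor of hepatocyte growth factor, was higher at 44.8 ± 3.20 FPKM after Tfeb siRNA and 37.6 ± 2.91 FPKM after scrambled siRNA (limma adjusted p = 0.0448). Its call was lost without any 1 of 5 of the 6 libraries, all but scrambled replicate 2 (up to 0.131). With the 5 lists joined 21 of 71 genes rose and 11 fell (45.1% called, against 33.3% of all tested genes). The share that rose was above the 16.9% of all tested genes higher, and the share that fell was close to the 16.4% lower. Without Tfeb siRNA replicate 1 or 2 or scrambled replicate 3, 7 of these genes fell. In those fits 1644, 1479 and 1371 of all 12257 tested genes were lower, against 2005 in the main fit.

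**Figure D4:**
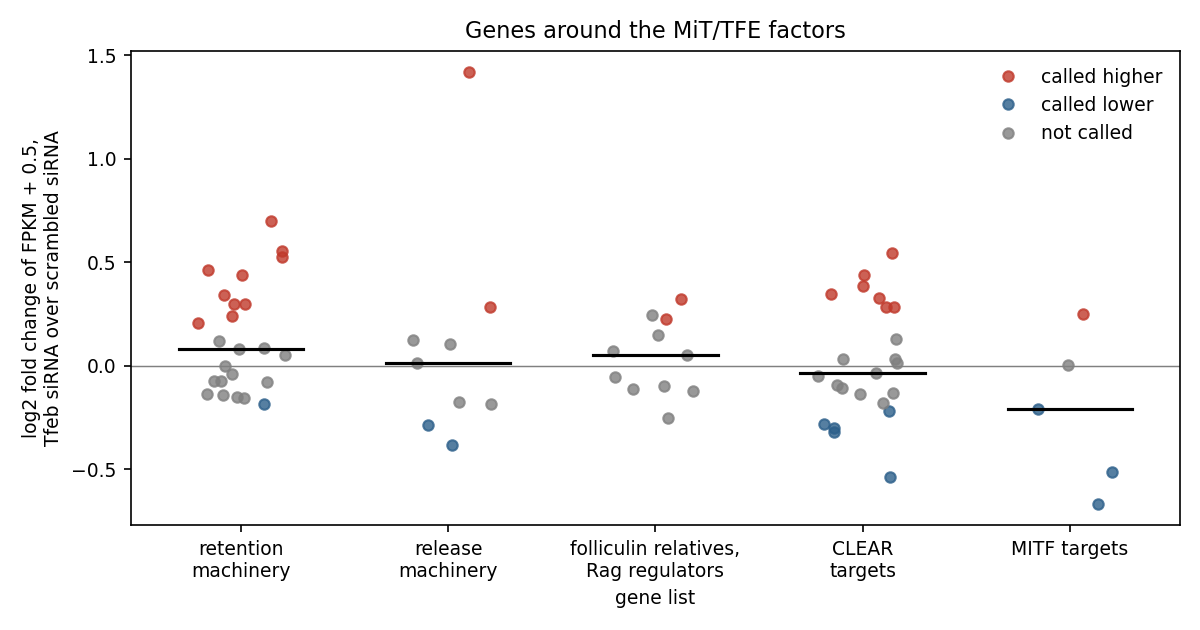
Log2 fold change of FPKM + 0.5, Tfeb siRNA over scrambled siRNA (vertical axis), of each tested gene in 5 lists of genes around the factors, with the list median as a black bar. Points are spread sideways for sight only. Medians lie between -0.21 and 0.08, and each list except that of folliculin relatives holds called genes in both directions.

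Seed-type words of the kind that siRNAs can pair with were looked up in 3' UTRs, taking for each gene the longest that GENCODE M21 annotates. An earlier ranking of these same data had grouped the words CTACATA with its neighbour TACATAA as words of falling genes, and likewise GGCCATG with its neighbour GCCATGA, so the shares describe that choice. Of 3510 genes with such a word 25.7% were lower and 14.6% higher, against 13.9% lower and 19.6% higher of 6964 genes without one. A longer 3' UTR has more room for such words, and the shares take no account of length. Among the 10 genes, Fnip1, Gpnmb and Rragc held 1 word each, and Tfeb, Mitf, Tfe3, Tfec, Flcn, Fnip2 and Rragd held none. Fnip1 and Gpnmb fell, and Rragc was not called. Whether these words have a part in either fall was not tested. The sites are shown with the word in capitals.
Fnip1: gggctaagataTACATAAtgctagaatta
Gpnmb: caccacctgaaGGCCATGcttcatctgcc
Rragc: gagctgccattTACATAAtgaaccgttac

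Transcripts with a pattern like that of Tfeb were ranked by Pearson's r of log2(FPKM + 0.5) over the 6 libraries, among 10526 other protein-coding genes. Slc45a4, Hsd17b12, Sap18, AI464131 and Alkbh5 came first, with r of 0.998, 0.998, 0.998, 0.997 and 0.997. Hsd17b12 is a fatty acid elongation enzyme and Alkbh5 an RNA demethylase. Slc45a4 had 5.16 ± 0.185 FPKM after Tfeb siRNA and 8.43 ± 0.620 FPKM after scrambled siRNA. For Mitf the nearest were Mapkbp1, Tmem64, Odaph, Sumo3 and Ada, with r of 0.998, 0.997, 0.996, 0.994 and 0.993. Ada, adenosine deaminase, had 2.32 ± 0.344 FPKM after Tfeb siRNA and 4.76 ± 0.505 FPKM after scrambled siRNA. Sap18, Sumo3 and Mapkbp1 share 15.3%, 8.70% and 7.70% of their 50-base words with other genes, so their counts are less certain. An r of 0.95 or more was reached by 671 genes with Tfeb (6.37%) and by 217 with Mitf (2.06%). The 6 points share the group difference, so r mostly follows it and is a description only.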

How the data were processed

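RNA was sequenced in 3 Tfeb siRNA and 3 scrambled siRNA samples; titles gave group and replicate number. The deposited values were FPKM per gene, per the file headers, on build mm10 as the submitters' processing notes name it. Sources used here do not give the aligner, counter, annotation release or strand use. Multiplied by gene length, 100% of values above 0 came out whole in steps of 1 read per library (tolerance 1e-06), which gave derived reads and depth; they show counting error only.

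Genes averaging at least 1 FPKM were tested with limma 3.58.1 (R 4.3.3) on log2(FPKM + 0.5), eBayes with trend, two-sided, Benjamini-Hochberg over 12257 genes, called at an adjusted p below 0.05; the step was checked on data with known answers. Nothing says that replicates were separate cultures. The p-values set the group difference against the spread of these samples, which may be technical only, and they hold for these samples alone. The members and lists were chosen with earlier results of these data known. Named besides the 10 genes are the 2 called genes with the largest rise and the 2 with the largest fall in each list, and the 5 genes most like Tfeb and Mitf; other genes are marked or are part of a marker check, and some genes that the rule or the lists hold are not reported here. Sequences came from RefSeq (GRCm38.p6) and GENCODE M21, which places all 10 genes as the table does; shared words have 50 bases.

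Residual correlations of same-numbered libraries were 0.382, 0.129 and 0.166 for numbers 1, 2 and 3. Tfeb siRNA replicate 2 with scrambled replicate 3 gave 0.106, and Tfeb siRNA replicate 3 with scrambled replicate 2 gave 0.0996. Pairs of a number 1 library with a library of another number gave -0.239 to -0.201. Each same-numbered pair was thus the highest for its libraries, but only number 1 stood apart. The values do not settle whether the numbers pair the libraries. The titles do not state a pairing either, and the main fit used no block. Alternatives were pseudocounts of 0.1 and 1, no limit on low values and one of 2 FPKM, TPM, limma-voom on derived reads, a replicate block and leaving out each library.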

Additional observations from a re-analysis of the deposited data

How the results depend on the processing

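Tfeb, Mitf, Fnip1, Fnip2 and Gpnmb kept direction and call, and Tfe3, Flcn and Rragc were not called, under every alternative that tested them. With a limit of 2 FPKM 1 member was lower in place of 4, because Tfeb, Mitf and Gpnmb then drop out of the test. The log2 fold change of Tfeb ran from -1.48 to -0.82. With the replicate number as a block 2542 genes were higher and 2386 lower, against 2075 and 2005 without it, and the block changed no call among the 8 tested members. Leaving out 1 library gave 7 to 11 lower genes in the joined lists, 1412 to 1703 higher and 1371 to 1720 lower genes among all tested, and 4 lower and 1 higher members each time. Among the named pathway genes Lamtor2, Met, Tsc1 and Pmel lost their calls under some alternatives, 21 times in all. TPM gave 1688 higher and 2275 lower genes. Depth limits Tfec and Rragd, with 3 to 56 reads per library.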
